A study of Drosophila melanogaster with 4 samples.

Results

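The respiratory chain transcripts described here are those of genes whose symbol starts with ND-, subunits of complex I, or with COX, subunits of complex IV, in a table of transcripts that differed between a kdm5 mutant and wild-type fly intestine. The annotation holds 56 such genes, 40 ND- and 16 COX, with 132 transcripts. Of these, 6 transcripts of 4 genes were among the 1761 in the deposited table: 2 of ND-15, 2 of ND-B12, 1 of COX7A and 1 of COX8. The other 52 genes had no transcript in it, and their levels are not known here. A listed transcript was found for 7.14% of ND- and COX genes and for 10.9% of all annotated protein-coding genes.

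RNA was sequenced from dissected intestines of female *Drosophila melanogaster* aged 3 to 5 days, in 2 samples of flies with the kdm5 alleles k6801 and 10424 and in 2 samples of w1118, the wild type of the comparison. Each sample pooled 30 intestines, and flies of both genotypes were kept at 25 degrees C. The labels give the tissue as intestine, although their source field speaks of the animal as a whole. The mutated gene encodes a demethylase of lysine 4 of histone H3. Nothing in the labels says whether the samples of a genotype came from separate crosses, so p-values cover only the variation between these samples, possibly technical. How the mutant and w1118 differ in genetic background beyond kdm5 is not given in the labels, so an effect of kdm5 and one of background cannot be told apart.

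Complex I takes electrons from NADH, passes them to ubiquinone and pumps protons out of the mitochondrial matrix. Complex IV, cytochrome c oxidase, takes electrons from cytochrome c, passes them to oxygen and pumps protons as well. Both combine core subunits, some of them encoded in mitochondrial DNA, with small accessory subunits encoded in the nucleus. The 4 listed genes all encode accessory subunits: ND-15 is the fly counterpart of human NDUFS5 and ND-B12 of human NDUFB3, both in the membrane arm of complex I, while COX7A and COX8 encode small membrane subunits of complex IV. In the gut, as in other epithelia, mitochondrial respiration supplies energy for absorption and secretion.

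Values are TPM, a measure of transcript abundance that allows for transcript length and has an equal total in every library. All p-values in the authors' deposited table lay below 0.05, so every listed transcript had already been selected on this comparison. TPM keeps no sequencing depth, which is unknown for all 4 libraries. The listed transcripts held 15.6% and 15.3% of an assumed total of 1000000 TPM in the mutant libraries and 23.9% and 23.5% in the w1118 libraries. The listed Kdm5 transcript (FBtr0307071) was at 0.0768 and 0.0361 TPM in mutant libraries versus 1.43 and 0.639 TPM in those of w1118, on the side that each label gives.

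In the mutant intestine both listed ND-15 transcripts rose more than any other listed respiratory chain transcript, 10.6- and 19.3-fold by the ratio of mean TPM (n = 2 per genotype). One ND-B12 transcript (FBtr0300679) rose 4.22-fold while the other (FBtr0113101) stood 1.61-fold lower. Their sum in TPM as deposited hardly differed between genotypes. The complex IV transcripts of COX7A and COX8 stood 1.7- and 1.53-fold lower in the mutant. Changes were tested with limma on log2(TPM + 1) across all 1761 listed transcripts, with Benjamini-Hochberg adjustment. On this test 5 of the 6 transcripts passed at an adjusted p of 0.05, 3 higher and 2 lower, against 77.1% of all listed transcripts (53.7% higher and 23.4% lower). Adjustment within a list already selected for small p is lenient. Therefore "rose" and "fell" are kept for transcripts that also passed when all 35694 annotated transcripts outside transposable elements were counted as tests. This corrects only the number of tests. The spread was still estimated from the selected transcripts alone, so all limma p-values here may be too small. By this annotation-wide adjustment 3 of the 6 passed, all of them higher, against 30.7% of all listed transcripts (22.0% higher and 8.69% lower). Annotation-wide calls needed both mutant libraries: without mutant replicate 1 or 2 limma gave 0 among all listed transcripts, with 1293 and 1217 at an unadjusted p under 0.05, so no "rose" or "fell" here holds without either of them. In all 6 the libraries of the 2 genotypes did not overlap, as in 94.8% of listed transcripts. Their median log2 change was 0.70, against 0.86 over all listed transcripts. The authors' deposited p-values, from a test the labels do not state, were 0.000577 for ND-15 FBtr0078118 and 0.000745 for FBtr0301887. For ND-B12 FBtr0300679 the deposited p was 0.0102. The limma adjusted p-values of these 3, given below, are far smaller. For ND-B12 FBtr0113101, COX7A and COX8 the deposited values were 0.0273, 0.0117 and 0.021. Whether any "rose" would hold on the deposited p-values was not tested.

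**Figure D1:**
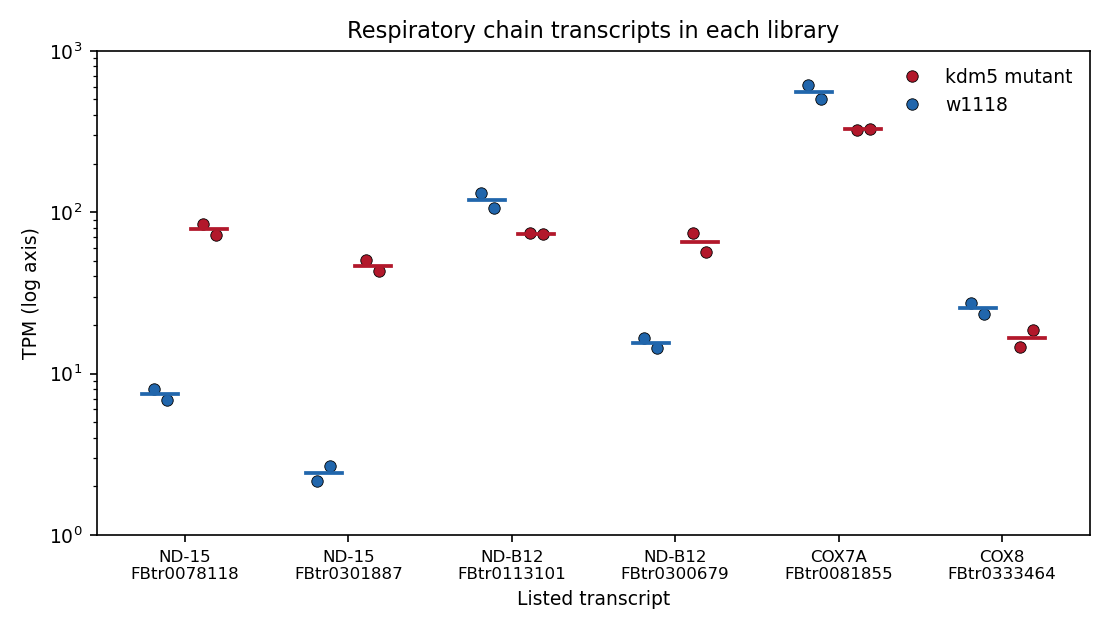
TPM on a log axis of the 6 listed ND- and COX transcripts in each library: points are single libraries (red, kdm5 mutant; blue, w1118; n = 2 each) and bars the group means. ND-15 rises from a mean of 7.45 to 78.6 TPM and from 2.41 to 46.7 TPM, while COX7A stands lower in both mutant libraries.

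ND-15 (FBgn0031228) lies on chromosome arm 2L, from 114726 to 156030 on the plus strand in the BDGP6.54 annotation. Of its 10 annotated isoforms, 8 share the same 101 coding codons and differ in the 5' UTR. Both listed transcripts are among these 8, and both start at 155335 and end at 156030. In FBtr0078118 (2 exons, 623 bases) the 5' UTR runs through 116 bases that are spliced out of FBtr0301887 (3 exons, 507 bases). The listed pair therefore encodes one and the same protein sequence.

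FBtr0078118 was at 84.8 and 72.4 TPM in mutant libraries versus 8.06 and 6.83 TPM in those of w1118. Its log2 change was 3.24 ± 0.30 (SE, 2 libraries per group), giving a limma adjusted p of 1.18e-07 over the listed transcripts and 2.4e-06 annotation-wide. The lowest mutant library thus lay far above the highest w1118 library. FBtr0301887 was at 50.4 and 42.9 TPM in mutant libraries versus 2.16 and 2.66 TPM in those of w1118. It changed by 3.80 ± 0.34 on the log2 scale (limma adjusted p = 9.52e-08 within the table and 1.93e-06 annotation-wide). Among the 1761 listed transcripts these log2 changes ranked 39th and 17th from the highest. Leaving out 1 library moved the folds between 9.72 and 11.5 and between 17.5 and 21.6. Without mutant replicate 1 or mutant replicate 2 the annotation-wide limma adjusted p of both transcripts was 0.396 or 0.523, while over the listed transcripts it stayed at or below 0.0258.

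The summed TPM of the ND-15 pair was 135 and 115 in the mutant libraries and 10.2 and 9.49 in the w1118 libraries, a 12.7-fold ratio of means. Within that sum the spliced form FBtr0301887 held 37.3% and 37.2% in the mutant libraries and 21.2% and 28% in the w1118 libraries. Its share was thus higher in both mutant libraries, although the w1118 libraries differed from each other by more than the mutant ones did. With 2 libraries per group, the smallest two-sided p that an exact permutation test can give is 0.333, so that test cannot inform on this share, and no other test of it was run. Neither listed ND-15 transcript has a base that no other ND-15 isoform holds, and the other 8 isoforms are not in the table. The division of reads among the isoforms is therefore uncertain, and the total level of ND-15 is unknown.

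**Figure D2:**
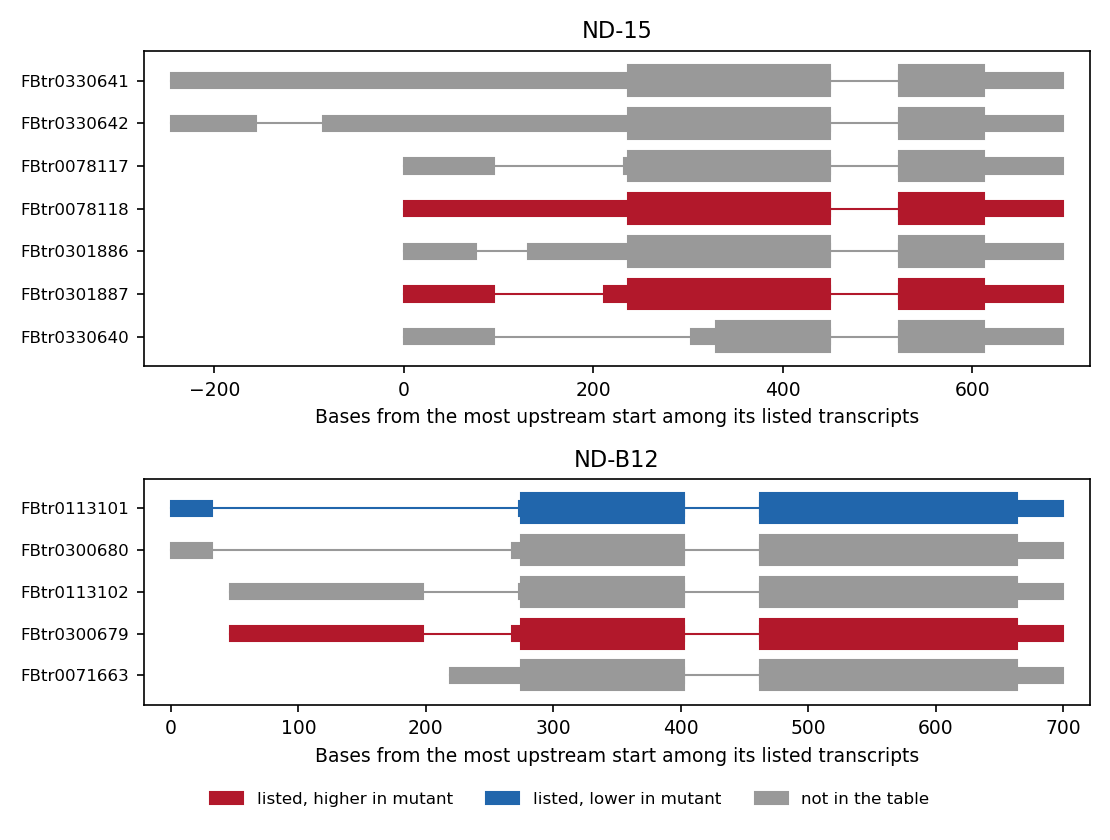
Annotated isoforms of ND-15 (upper) and ND-B12 (lower), drawn to scale in bases from the most upstream start among the listed transcripts of the gene; tall boxes are coding, low boxes untranslated, and lines introns. Red and blue mark listed transcripts that stood higher and lower in the mutant, and grey those not in the table; 3 ND-15 isoforms that start 40609 bases upstream are not drawn.

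ND-B12 (FBgn0034645) lies on chromosome arm 2R, from 21658078 to 21658777 on the plus strand. All 5 of its annotated isoforms share the same 110 coding codons. The listed transcripts differ in where they start: FBtr0113101 begins at 21658078 with a first exon of 32 bases, and FBtr0300679 begins 46 bases downstream, at 21658124. Of the 525 bases of FBtr0300679, 157 are not in FBtr0113101, and their 5' UTRs are 159 and 34 bases long. As with ND-15, the difference lies outside the coding sequence.

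FBtr0113101 was the more abundant form in w1118, at 131 and 106 TPM against 74.3 and 73.1 TPM in the mutant libraries. It stood lower in both mutant libraries by 0.67 on the log2 scale (a change of -0.67 ± 0.25, SE, n = 2 per group), giving a limma adjusted p of 0.0253 over the listed transcripts and 0.512 annotation-wide. FBtr0300679 went the other way, with 74.1 and 56.6 TPM in mutant libraries versus 16.7 and 14.3 TPM in those of w1118. Its log2 change was 2.0 ± 0.29, giving a limma adjusted p of 1.89e-05 over the listed transcripts and 0.000384 annotation-wide. Without mutant replicate 1 or mutant replicate 2 the annotation-wide limma adjusted p of FBtr0300679 was 0.421 or 0.551. The lower level of FBtr0113101 did not pass over the listed transcripts when any 1 of the 4 libraries was left out (limma adjusted p from 0.0604 to 0.242).

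Added together, the 2 ND-B12 transcripts reached 148 and 130 TPM in mutant libraries versus 148 and 120 TPM in those of w1118. In TPM as deposited the summed level thus overlapped between the genotypes, with means of 139 ± 13.3 and 134 ± 19.9 TPM (SD, n = 2). With each library rescaled to the same listed total, the log2 changes were 2.59 for FBtr0300679 and -0.06 for FBtr0113101. The near-equal sum therefore rests on TPM as deposited. FBtr0300679 made up 49.9% and 43.6% of the sum in the mutant libraries and 11.3% and 11.9% in the w1118 libraries. The ratio of FBtr0300679 to FBtr0113101 was 0.998 and 0.774 in the mutant libraries and 0.127 and 0.135 in the w1118 libraries. On the log2 scale this ratio was 2.74 higher in the mutant, with no overlap between the genotypes. The table held 167 genes with at least 2 listed transcripts, of which 20 had members in opposite directions, and 13 of these 20 had limma calls in both directions over the listed transcripts. Such a call was made for 77.1% of all listed transcripts, so calls on both sides are common in this table. Among the 20, ND-B12 had the smallest fold between the genotypes in summed TPM as deposited, 1.04. Its log2 changes lay 2.67 apart, the 7th widest gap of the 20, in which gaps ran from 1.34 to 7.43 with a median of 2.26. No base of either listed ND-B12 transcript is absent from all other isoforms, and the other 3 isoforms are not in the table, so how reads were divided between the forms is uncertain here too. The total level of ND-B12 is therefore unknown as well.

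**Figure D3:**
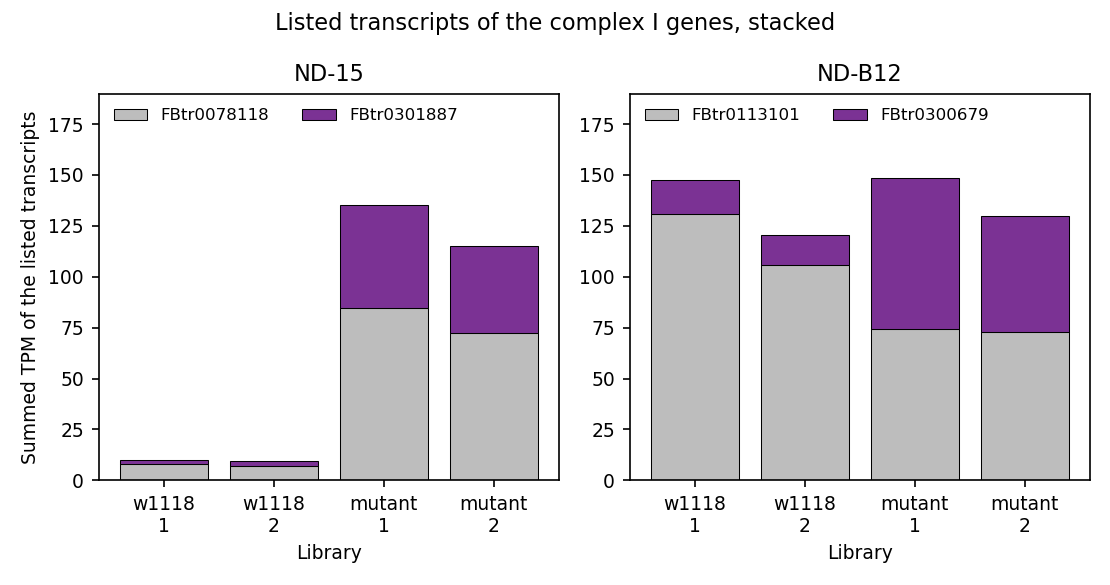
Summed TPM of the listed transcripts of ND-15 (left) and ND-B12 (right) in each library, with the transcripts stacked. The ND-15 stack is 12.7-fold higher in the mutant by the ratio of means with both parts larger, while the ND-B12 stack has about the same height in both genotypes and the share of FBtr0300679 is larger in the mutant.

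COX7A (FBgn0040529) lies on chromosome arm 3R, from 8339944 to 8341043 on the minus strand, and has 2 annotated isoforms. The listed one, FBtr0081855, has 89 coding codons, and the other, FBtr0305680, has 98 and another first exon. FBtr0081855 was the most abundant of the 6 transcripts, at 322 and 329 TPM in mutant libraries versus 610 and 500 TPM in those of w1118. The mutant libraries lay close together and below both w1118 libraries, which were further apart. The log2 change was -0.76 ± 0.24 (SE, 2 libraries per group), giving a limma adjusted p of 0.0102 over the listed transcripts and 0.208 annotation-wide. Over the listed transcripts the adjusted p was 0.0563 without mutant replicate 1, 0.0623 without mutant replicate 2 and 0.132 without w1118 replicate 1 (limma).

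COX8 (FBgn0263911), on chromosome arm 3L from 21538859 to 21539447 on the minus strand, also has 2 annotated isoforms, both with the same 68 coding codons. The listed isoform, FBtr0333464, is the one with the longer 3' UTR, of 213 against 106 bases. It was at 14.5 and 18.5 TPM in mutant libraries versus 27.2 and 23.4 TPM in those of w1118. Although the libraries did not overlap, its log2 change of -0.59 ± 0.31 (SE, n = 2 per group) did not pass (limma adjusted p = 0.0829 within the table and 1 annotation-wide). For COX7A and COX8 alike, only 1 of 2 isoforms was listed, so the level of the gene as a whole is unknown.

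In w1118 the 6 transcripts kept one order without overlap between neighbours: COX7A at a mean of 555 TPM, then ND-B12 FBtr0113101 at 119, COX8 at 25.3, ND-B12 FBtr0300679 at 15.5, and the ND-15 transcripts FBtr0078118 and FBtr0301887 at 7.45 and 2.41 TPM. In the mutant COX7A was again highest, at a mean of 326 TPM, and COX8 was lowest, at 16.5 TPM. Between them stood ND-15 FBtr0078118 at 78.6, ND-B12 FBtr0113101 at 73.7 and ND-B12 FBtr0300679 at 65.3 TPM, whose libraries overlapped, and then ND-15 FBtr0301887 at 46.7 TPM. Ranked by mean TPM among all listed transcripts, ND-15 FBtr0078118 moved from place 873 in w1118 to place 220 in the mutant, and FBtr0301887 from 1392 to 326. COX7A moved from place 39 to place 75.

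**Figure D4:**
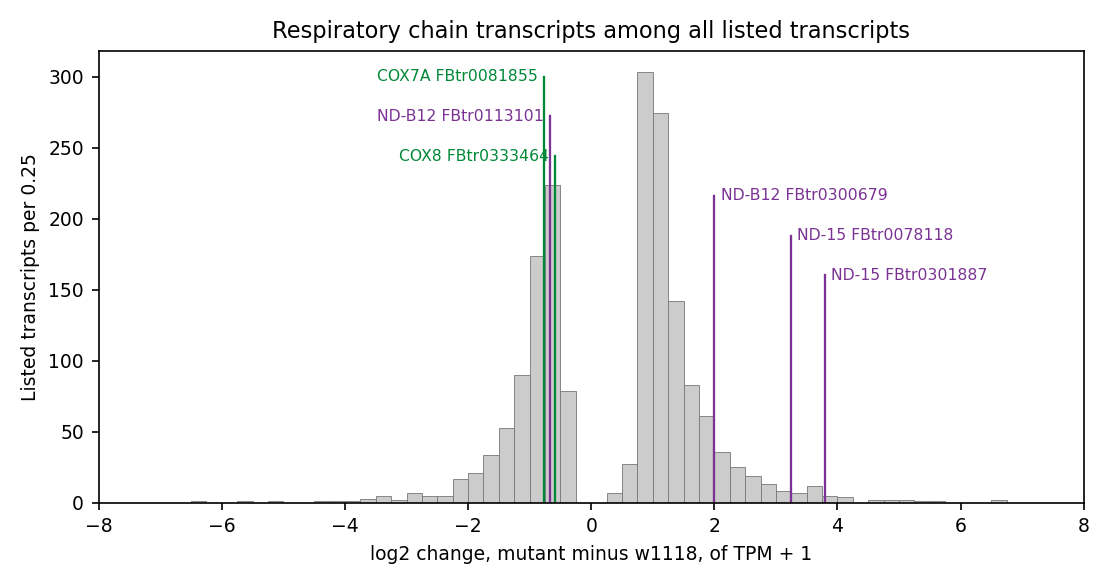
Log2 changes of TPM + 1, mutant minus w1118, of all 1761 listed transcripts (grey bars, number per step on the axis), with the 6 ND- and COX transcripts as vertical lines (purple, complex I; green, complex IV; line heights only separate the names). No listed transcript lies between -0.26 and 0.29, and the 3 higher ND- transcripts, at 2.0, 3.24 and 3.80, stand in the upper tail.

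Because abundant listed transcripts were lower in the mutant, rescaling each library to the same listed total raised log2 changes by a median of 0.55, and the calls over the listed transcripts went from 946 higher and 412 lower to 1031 higher and 166 lower (limma). On that scale the ND-15 transcripts changed by 3.81 and 4.33 and ND-B12 FBtr0300679 by 2.59. COX7A, COX8 and ND-B12 FBtr0113101 came out at -0.14, -0.01 and -0.06 (limma adjusted p = 0.646, 0.995 and 0.879 over the listed transcripts). The calls of COX7A and ND-B12 FBtr0113101 as lower therefore rest on TPM as deposited, while the calls of the 3 higher transcripts do not. The near-equal sum of the ND-B12 pair rests on TPM as deposited too.

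Beyond the ND- and COX genes, the table held few genes of the respiratory chain. Of the 46 genes looked for under complex II, complex III with cytochrome c, complex V and the assembly factors, none was matched by symbol. That search was limited: 5 symbols of the assembly factor list and 1 of the complex III list matched no annotated gene, and 20 listed transcripts matched no annotated gene at all. Among these 20 was FBtr0100867, with a log2 change of -0.97. Its identifier is next to that of the mitochondrial transcript mt:CoIII (FBtr0100868), and its gene was not determined. Assembly factors outside the list used were in the table, and 3 of them were named here after their values were seen. Such factors were not searched for in full, so the direction of these 3 cannot be taken as that of all. Sdhaf3, a complex II assembly factor, rose from 6.97 and 7.97 TPM in w1118 to 22.1 and 29.8 TPM in the mutant (log2 change 1.66 ± 0.34, SE; limma annotation-wide adjusted p = 0.0101). Nubpl, which aids the insertion of iron-sulphur clusters into complex I, had transcripts at log2 changes of 0.98 and 0.84, and ECSIT, a complex I assembly factor in mammals, had 1 at 0.81 (limma annotation-wide adjusted p = 0.188, 0.393 and 1). In complex IV one further transcript was listed, that of mt:CoIII, a core subunit encoded in mitochondrial DNA. It was at 626 and 1134 TPM in mutant libraries versus 1685 and 1163 TPM in those of w1118, so mutant replicate 2 lay just below w1118 replicate 2. Its log2 change was -0.73 ± 0.29 (SE, 2 libraries per group; limma adjusted p = 0.0307 within the table and 0.622 annotation-wide). Without mutant replicate 1 it was -0.30 (adjusted p = 0.442), without mutant replicate 2 it was -1.16 (0.0591) and without w1118 replicate 1 it was -0.46 (0.264). It also did not pass with 1 prior variance for all transcripts (limma adjusted p = 0.0749), and rescaled to equal listed totals it was -0.12. All 3 listed complex IV transcripts thus stood lower in the mutant, near 0 after rescaling, with 2 of 3 passing over the listed transcripts and 0 of 3 annotation-wide (limma), against 77.1% and 30.7% of all listed transcripts.

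Enzymes of the citrate cycle, which supplies NADH to complex I, went both ways. Of 12 listed transcripts of carriers and this cycle, from 6 of 17 genes looked for, 4 were higher and 8 lower in the mutant. By the annotation-wide adjustment 3 rose and none of the 8 fell, and over the listed transcripts 4 passed as higher and 2 as lower (limma). Of all listed transcripts, 22.0% passed annotation-wide as higher and 8.69% as lower, and 53.7% and 23.4% did so within the table. Fum1, a fumarase, rose 3.65-fold, from 5.63 and 8.95 TPM in w1118 to 26 and 27.2 TPM in the mutant (limma annotation-wide adjusted p = 0.00662). One transcript of Idh, the NADP-dependent isocitrate dehydrogenase (FBtr0333058), rose from 0.16 and 0.662 TPM to 4.29 and 3.12 TPM (limma annotation-wide adjusted p = 0.00447). The other listed Idh transcript (FBtr0076668) was at 7.59 and 8.29 TPM in mutant libraries versus 2.93 and 2.72 TPM in those of w1118 (limma annotation-wide adjusted p = 0.178). Both Idh transcripts count among the 4 higher, and FBtr0333058 among the 3 that rose, although an NADP-dependent enzyme does not supply NADH. Ogdh, a subunit of the 2-oxoglutarate dehydrogenase complex, had transcripts in both directions. Its FBtr0075267 rose from 0.0382 and 0.734 TPM in w1118 to 9.88 and 5.66 TPM in the mutant (log2 change 2.67 ± 0.38, SE; limma annotation-wide adjusted p = 0.000291). Its FBtr0075268 was at 15.7 and 28.1 TPM in mutant libraries versus 52.9 and 32.9 TPM in those of w1118 (log2 change -0.96; limma adjusted p = 0.0175 within the table and 0.356 annotation-wide). That lower level did not pass within the table without mutant replicate 1 (-0.55), mutant replicate 2 (-1.36) or w1118 replicate 1 (-0.62). The remaining listed Ogdh transcript, FBtr0112860, had a log2 change of -0.74 (limma adjusted p = 0.0571 within the table).

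Other lower values came from the NAD-dependent isocitrate dehydrogenase, with 3 transcripts of Idh3a (log2 changes from -0.76 to -0.59) and 2 of Idh3g (-0.89 and -0.65), and from the citrate synthase kdn (-0.72). Of these 6, kdn alone passed over the listed transcripts (limma adjusted p = 0.0311). It did not pass without mutant replicate 1 (-0.52), mutant replicate 2 (-0.92) or w1118 replicate 1 (-0.33), or with 1 prior variance (limma adjusted p = 0.0679). Libraries of the genotypes overlapped for Idh3a FBtr0307904 and Idh3g FBtr0113291, and Idh3g FBtr0113289 ran from -1.46 without mutant replicate 2 to -0.33 without mutant replicate 1. Rescaled to equal listed totals, the 8 lower citrate cycle transcripts lay between -0.36 and -0.02 and none passed, with kdn at -0.11 (limma adjusted p = 0.785) and Ogdh FBtr0075268 at -0.36 (0.385). The kdn transcript was at 59.4 and 78.4 TPM in mutant libraries versus 148 and 86.3 TPM in those of w1118. TFAM, which packages mitochondrial DNA and aids its transcription, was the 1 listed regulator of 7, at 22.6 and 36.4 TPM in mutant libraries versus 17.8 and 14.3 TPM in those of w1118 (log2 change 0.81 ± 0.32, SE; limma adjusted p = 0.0324 within the table and 0.657 annotation-wide). TFAM passed within the table without mutant replicate 1, and with no other library left out. Over these 13 citrate cycle and regulator transcripts the median log2 change was -0.62, against 0.86 over all listed transcripts; 53.8% passed over the listed transcripts and 23.1% annotation-wide, against 77.1% and 30.7%.

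**Figure D5:**
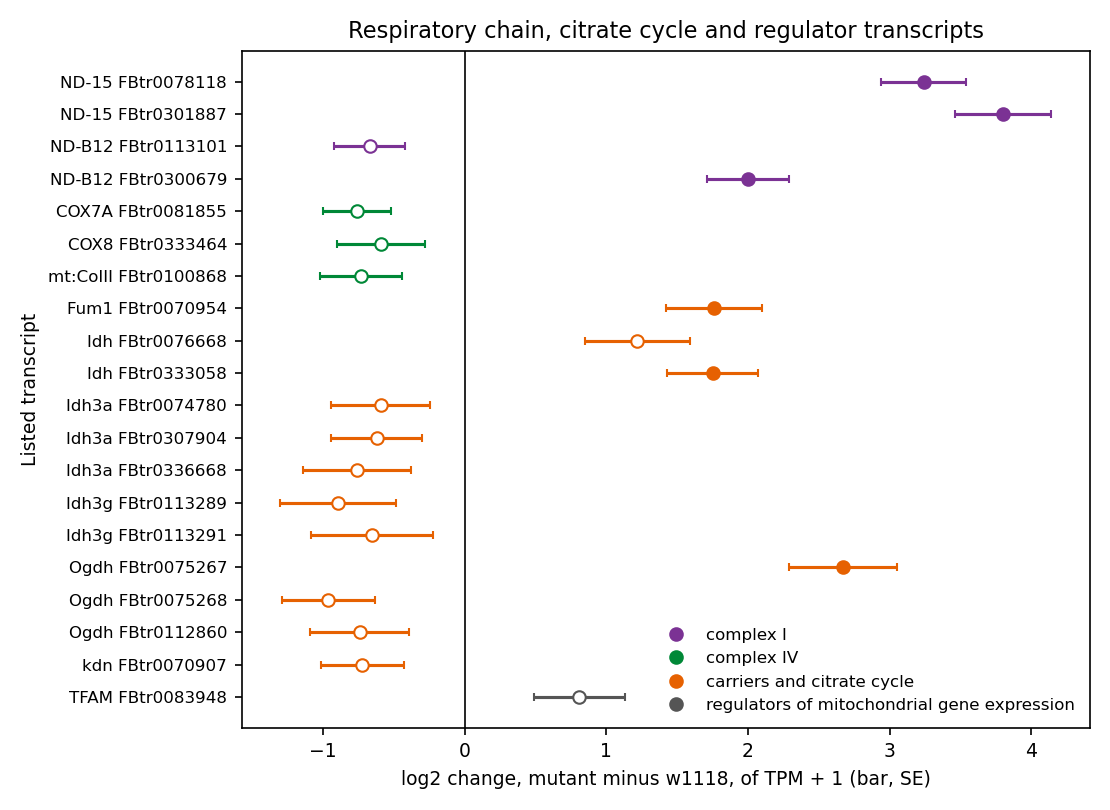
Log2 change of TPM + 1, mutant minus w1118, with SE bars (n = 2 per group), of the listed transcripts of complexes I and IV, the citrate cycle and the regulators that the gene lists used here name. Filled points passed the annotation-wide adjustment: 3 of complex I and 3 of the citrate cycle list, all higher in the mutant. That list includes the NADP-dependent Idh.

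Transcripts of neighbouring genes were also listed around 3 of the 4 genes. Of 15 protein-coding genes within 10000 bases of the ND-15 gene span, 5 had a listed transcript. Inside the long ND-15 span, CG3164 (FBtr0078155) rose from 0.371 and 0.144 TPM in w1118 to 5.31 and 5.86 TPM in the mutant, and its other listed transcript (FBtr0078153) from 0.09 and 0.0318 to 2.52 and 2.61 TPM (limma annotation-wide adjusted p = 0.000181 and 0.000908). Gs1 (FBtr0300568), a glutamine synthetase, rose 3.56-fold, from 19.5 and 17 to 59 and 70.9 TPM (limma annotation-wide adjusted p = 0.00108). The other 2 listed Gs1 transcripts, FBtr0078114 and FBtr0078115, had log2 changes of 1.19 and 0.82 and did not pass annotation-wide (adjusted p = 0.0936 and 0.475). CG11454 was at 23.8 and 28.6 TPM in mutant libraries versus 12.5 and 12.9 TPM in those of w1118 (annotation-wide adjusted p = 0.229). On the far side of the span, Sam-S and Nhe1 stood lower in the mutant, with log2 changes of -0.97 and -0.84 (annotation-wide adjusted p = 0.807 and 0.778). The listed ND-15 transcripts start at the other end of the span, and these 5 genes lie between 11108 and 48603 bases from them.

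Near ND-B12, 2 of 12 coding genes within 10000 bases were listed. Rae1, an mRNA export factor on the opposite strand, overlaps the end of ND-B12 by 8 bases and was at 24.4 and 39.6 TPM in mutant libraries versus 12.7 and 11.8 TPM in those of w1118 (limma annotation-wide adjusted p = 0.0597). Whether the authors counted reads by strand is not stated in the labels or headers. The next gene, pirk, an inhibitor of the IMD immune pathway, fell 2.17-fold, from 87.1 TPM in both w1118 libraries to 42.7 and 37.6 TPM (limma annotation-wide adjusted p = 0.0359). That call was made on TPM as deposited, and the change of pirk when rescaled to equal listed totals is not reported here. Near COX7A, DppIII, a dipeptidyl peptidase, was higher in the mutant, with a log2 change of 0.87, in contrast to COX7A (limma annotation-wide adjusted p = 0.315). None of the 7 coding genes near COX8 was listed.

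The transcripts most like each of the 6 were found by the distance between their log2(TPM + 1) values over the 4 libraries, each centred on its own mean. Closest to ND-15 FBtr0078118 were CG32444 (distance 0.239), SteXh:CG42398 and GstD5, and closest to FBtr0301887 were CG13086 (0.236), an unmatched transcript (FBtr0306697) and BomS1. For ND-B12 FBtr0300679 they were GstE5 (0.206), BomBc2 and CG2017, and for FBtr0113101 salt (FBtr0339190; 0.0562), CG14131 and nemy. COX7A was closest to CG11961 (0.0275), Adat1 and promL, and COX8 to Myo31DF (0.0474), CG5853 and Nep1. No ND- or COX transcript of another gene was among these 18 nearest. With only 6 such transcripts among the 1761 listed, few or none could be looked for there, so this absence says little.

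Markers of the cells that the samples could hold were listed in part, and some passed the test. The counts below stand beside 77.1% of all listed transcripts passing within the table (53.7% higher and 23.4% lower, limma). By the annotation-wide adjustment the share was 30.7% (22.0% higher and 8.69% lower). These calls were all made on TPM as deposited. All 7 listed enteroendocrine transcripts, of 4 of 8 marker genes, were lower in the mutant, with summed TPM of 24 and 32.3 against 58.5 and 50.7 in w1118; 3 of the 7 passed over the listed transcripts and 0 annotation-wide (limma). Enterocyte markers had 5 of 7 genes listed, with 4 of 6 transcripts lower and sums of 15610 and 12971 against 34675 and 38509 TPM, most of it from the protease Jon65Aiii. By the annotation-wide adjustment 3 of these 6 fell, Jon65Aiii and both LysB transcripts, and 1 rose, Myo61F. Muscle markers, of a tissue rich in mitochondria, had 3 of 16 genes listed and overlapping sums of 118 and 166 TPM in the mutant and 249 and 165 TPM in w1118; 2 transcripts passed as higher and 1 as lower over the listed transcripts and 0 annotation-wide. The listed Mhc transcript of that set was under 1 TPM in every library and at 0 in w1118 replicate 1. Malpighian tubule markers had 5 of 10 genes listed, with 3 transcripts higher and 5 lower, and overlapping sums of 239 and 263 against 272 and 226 TPM; 2 rose and 1 fell. Fat body had 1 of 8 genes listed, Tsf1, which rose, at 29.8 and 38.2 against 9.24 and 10.1 TPM. Haemocytes had 2 of 6 listed, with summed TPM of 1.2 and 1.32 against 0.957 and 0.557, and srp, which rose, at 0 in w1118 replicate 1, while Hml did not pass. The stem cell set had 1 of 4 listed, esg, at 0.48 and 0.873 against 2.02 and 1.24 TPM, which did not pass (limma adjusted p = 0.0542 within the table). The ovary set and the crop and proventriculus set had no listed gene. In these bulk samples fewer cells of a type and less RNA per cell cannot be told apart, and the part of cell composition in the respiratory chain values was not tested.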

How the data were processed

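RNA from intestines of a kdm5 mutant and w1118 (2 libraries each) was given in 1 deposited table with transcript identifiers, the authors' deposited p-values and TPM values made by the authors, per the file headers. Cufflinks and DESeq appear in the submitters' processing notes, but not what each was used for. Aligner, build and annotation are not given there, nor whether the p-values were adjusted.

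Transcripts were matched to the Ensembl annotation of BDGP6.54, and the authors may have used another; 1741 of 1761 matched, to 1526 genes. Coordinates are 1-based. limma 3.58.1 in R 4.3.3 (prior variance depending on the mean, no replicate block, no filter on low values) was run on log2(TPM + 1) over the whole table, a scale that understates the change of low transcripts. P-values were adjusted by Benjamini-Hochberg. The fit was also run on simulated data, but these were not selected on p, so they cannot check calls in this selected table. A fold is the ratio of group mean TPM. TPM gives no counting interval.

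The members, gene lists and tests were chosen with earlier results of these data known. Genes were named by a rule: every listed ND- and COX transcript, those of fixed gene lists for the respiratory chain, citrate cycle, regulators and cell markers (lists that do not hold every such gene), Kdm5, listed neighbours within 10000 bases, and the 3 transcripts most like each member. Of the list symbols, 3 were matched as older names through the RefSeq gene table (Nc73EF to Ogdh among them). Sdhaf3, Nubpl, ECSIT and the unmatched FBtr0100867 were named outside the rule. One listed neighbour is not reported here. Alternatives were pseudocounts of 0.1 and 0.01, a mean of at least 1 TPM, annotation-wide adjustment, rescaling to equal listed totals, 1 prior variance, a replicate block and leaving out each library.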

Additional observations from a re-analysis of the deposited data

How the results depend on the processing

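Both ND-15 transcripts and ND-B12 FBtr0300679 kept their direction and passed at an adjusted p of 0.05 under all 11 alternatives (limma; highest adjusted p 0.0258, 0.0258 and 0.0272), and COX8 stayed lower and did not pass under any of the 11. No direction of an ND- or COX transcript reversed. Of the 6 transcripts, 5 passed in the planned fit, and 3 did when rescaled to equal listed totals or adjusted annotation-wide, and between 3 and 4 with 1 library left out. COX7A, at -0.76 in the planned fit, did not pass when rescaled (-0.14) or annotation-wide (-0.76), and ran from -0.90 to -0.62 with 1 library left out. ND-B12 FBtr0113101, at -0.67, did not pass when rescaled (-0.06), annotation-wide (-0.67), with 1 prior variance (-0.67) or with any 1 library left out (from -0.83 to -0.51). Of the 13 citrate cycle and regulator transcripts 7 passed, and 3 did annotation-wide, 5 when rescaled or with the replicate block, and between 3 and 5 with 1 library left out. Over all listed transcripts 1358 passed, against 540 annotation-wide and between 580 (without w1118 replicate 1) and 1239 with 1 library left out. With the replicate number as a block the count was 933, and 5 of the 6 ND- and COX transcripts passed. The samples share only a number: the differences between replicates 1 and 2 of the genotypes correlated at -0.188 over the listed transcripts. Apart from the rescaling, whose construction moves every transcript, the fewer samples of each left-out fit and the larger number of tests, the cause of these changes was not tested. TPM hold no depth, so what depth limits is unknown.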
